A study of Mus musculus with 8 samples.

Results

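The Ku86 comparison set all 4 testis arrays whose titles carry ku86(ko) against all 4 whose titles carry ku86(wt), so it used all 8 arrays of the study. Members were described where the 4 ku86(ko) signals all lay above, or all lay below, the 4 ku86(wt) signals. Of 12422 probe sets that were not controls, 287 (2.31%) met that rule, 161 higher and 126 lower in ku86(ko), and such members are called separated below. Were signals unrelated to the labels, a share of about 0.0286 would separate, which is the exact two-sided permutation p of any such probe set. The number of members is near that share and is not read as a result of Ku86. Higher signal in ku86(ko) was measured for Xrcc5 itself (9.21-fold) and, among others, for the cytokine receptor kinase Jak1 (4.31-fold) and the mitotic kinesin Kif11 (3.22-fold). The sizes for Jak1 and Kif11 rested on ku86(wt) signals near the floor, and that for Xrcc5 rested in part on 1 ku86(wt) array under it. Among the separated members that were tested, angiotensinogen, Agt, was lowest relative to ku86(wt), at 0.529 times its signal. No probe set passed the test of the main effect, so all of these are described and none is called. The ku86(ko) side held 2 arrays of double knockout mice (Ku86-/- and Terc-/- of the third generation without Terc, written G3) and 2 of Ku86 knockout mice (Ku86-/- with Terc+/+). The ku86(wt) side held 2 arrays of Terc knockout mice (Ku86+/+ with G3 Terc-/-) and 2 of wild type mice (Ku86+/+ and Terc+/+). Each side thus held as many arrays without Terc as with it. Strain, age and treatment were not given in the sources used here.

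Ku86 is the larger partner of the Ku heterodimer and is encoded by Xrcc5. Ku slides onto broken DNA ends, recruits the kinase Prkdc and starts non-homologous end joining, and it also sits at telomeres. Terc is the RNA template of telomerase, without which telomeres shorten from one mouse generation to the next. The testis holds dividing germ cells, meiotic cells and spermatids beside Sertoli cells, which nurse them, and beside peritubular muscle and Leydig cells.

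RNA was hybridised to Affymetrix MG_U74Av2 arrays, which report 1 intensity (signal, in arbitrary units) per probe set. The labels name testis, whereas the scanner's records name germ cells for all 8. Somatic markers were measured on both sides: Insl3, a Leydig cell hormone, read 53.3 to 123.9 in ku86(ko) and 51.7 to 139.2 in ku86(wt), and the Sertoli transcription factor Gata4 read 178.4 to 245.5 and 140.6 to 243.6 on the same sides. Protamine Prm1, a spermatid gene, read 13783.2 to 17932 in ku86(ko) and 15151.5 to 18506.5 in ku86(wt). Median signal per array ran from 60.5 to 70.6 in ku86(ko) and from 49.7 to 73.2 in ku86(wt). Wild type 1, a repeated hybridisation, had the lowest median and the largest share of probe sets at or under the floor of 11.8 (26%), and Terc knockout 2 had the highest median and the smallest share (15.6%). Double knockout 1 pooled 3 mice. Scan day 1 held double knockout 1 and Ku86 knockout 1, day 3 held wild type 1, and day 2 held the other 5 arrays, 2 of ku86(ko) and 3 of ku86(wt). Because days 1 and 3 each held 1 side only, the difference within day 2 is given beside the main one for some results. Where it is left out, it may still have been smaller or larger than the main one. Nothing in the labels says that replicates came from separate animals, so p-values measure the spread between these samples, which may be technical.

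The targeted gene went against its label. Xrcc5 read 259 and 423.3 in the double knockout and 419.9 and 458.8 in the Ku86 knockout, against 71.2 and 11.1 in the Terc knockout and 46.3 and 75.6 in wild type. All arrays labelled ku86(ko) were therefore above all arrays labelled ku86(wt), and the lowest of them was 3.43 times the highest ku86(wt) array. The mean was 390 ± 89.3 in arrays labelled ku86(ko) and 51 ± 29.6 in those labelled ku86(wt) (SD, n = 4 each). The exact two-sided permutation p was 0.0286 over 70 groupings, the smallest they can give and the value that any separated probe set gives. The Terc knockout array at 11.1 lay under the floor of 11.8 and was raised to it before taking log2. The log2 difference, ku86(ko) minus ku86(wt), was 3.20 ± 0.449 (SE). Limma, a linear model fitted to all 8 arrays and 7282 probe sets, gave it an unadjusted p of 1.32e-05 and a Benjamini-Hochberg adjusted p of 0.0958, over the threshold of 0.05. Over 22 alternative settings the difference ran from 2.55 to 3.85 and the adjusted p from 0.000732 to 0.745 (with scan day as a block), and 6 of those settings put it under their threshold. Leaving out Terc knockout 1 (3.85, adjusted p = 0.000732) or Terc knockout 2 (2.55, adjusted p = 0.0206) were among them. The files do not place these probes relative to the targeted exons, and probes outside a deletion would not test it. The directions below are those of the libraries as labelled.

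A second Xrcc5 probe set read at most 3.4 on any array and was not tested. The partners of Ku86 in end joining overlapped between the sides. Xrcc6, which encodes Ku70, averaged 86 ± 19.8 in ku86(ko) and 102 ± 25.8 in ku86(wt), and Prkdc averaged 46.8 ± 9.72 and 59.4 ± 26 on the same sides (SD, n = 4 each). Among the 30 tested genes nearest to Xrcc5 in gene order on chromosome 1, 15 on each side, 16 lay above 0. Of all 5530 genes tested, 3063 lay above 0. The median log2 difference of the neighbours was 0.027. After median centring it was -0.057. Of these neighbours, Lancl1 did not overlap, at 3188.5 to 3797.8 in ku86(ko) and 3848 to 4981.3 in ku86(wt).

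**Figure D1:**
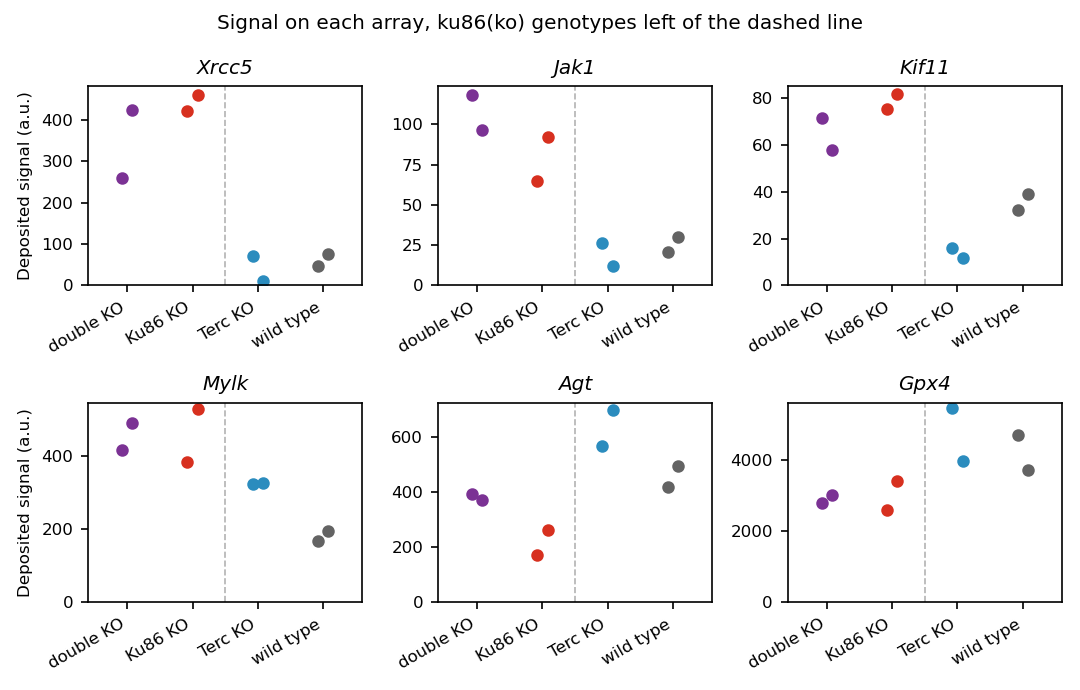
Signal in arbitrary units (linear vertical axes from 0) of 6 genes on each of the 8 arrays, 1 point per array, with double knockout and Ku86 knockout left of the dashed line and Terc knockout and wild type right of it. No ku86(ko) point of Xrcc5, Jak1, Kif11 or Mylk lies as low as any ku86(wt) point, and none of Agt or Gpx4 lies as high.

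Across the whole array, limma called 0 of 7282 tested probe sets (0%) for the Ku86 main effect at an adjusted p under 0.05. Unadjusted, 375 (5.15%) had a p under 0.05, of which 251 were higher and 124 lower in ku86(ko). No other tool was run. The genes below are therefore described by their values and not as called changes. Among tested probe sets 122 (1.68%) did not overlap and were higher in ku86(ko), and 106 (1.46%) did not overlap and were lower. Together these were 228 of 7282, near the share of 0.0286 that separates where signals are unrelated to the labels. A further 59 such probe sets, 39 higher and 20 lower, were too dim to be tested. Of the 122 higher members, 13 passed the filter on dim probe sets (a mean log2 signal of at least that of 38.1) only through their ku86(ko) side and so had to differ, among them Jak1, Kif11, Dock9 and Brca1, and 3 of the 106 lower ones passed only through their ku86(wt) side. Of the 228 tested members, 206 had exactly 1 gene symbol, standing for 204 genes, 16 had none and 6 had several.

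The higher and lower members differed in size and in signal. The higher ones had a median log2 difference of 0.49 and ran from 0.145 to 3.2, and 16 of 122 were at least 2-fold. The lower ones had a median of -0.38 and ran from -0.919 to -0.13, and 0 of 106 reached 2-fold. Under 1.5-fold were 81 of the higher and 90 of the lower members. Median signal was 152 for the higher members and 433 for the lower ones, against 167 over all tested probe sets. Probe sets whose suffix marks shared, family or otherwise relaxed probe choice made up 16.4% of the higher members and 29.2% of the lower ones, against 20.5% of all tested. Within scan day 2 the median differences were 0.45 and -0.265.

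**Figure D2:**
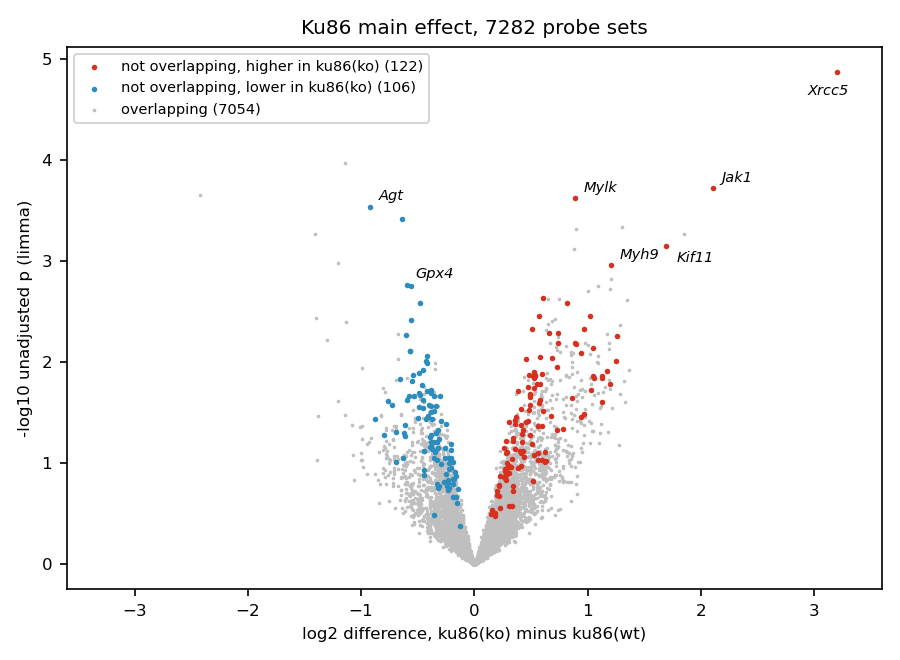
Log2 difference, ku86(ko) minus ku86(wt), on the horizontal axis and -log10 of the unadjusted limma p on the vertical axis for 7282 probe sets, 1 point each. Red points (122) did not overlap and were higher in ku86(ko), blue points (106) did not overlap and were lower, and grey points overlapped. Xrcc5, at 3.20, stands apart from all others.

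The direction split depended on scaling. It was 122 higher to 106 lower (53.5% higher) on the deposited scale, 97 to 140 (40.9% higher) after quantile normalization and 58 to 117 (33.1% higher) after median centring. Of the 228 members, 143 kept their separation after quantile normalization and 77 after median centring. The median of all tested probe sets was 0.029 on the deposited scale, -0.000664 after quantile normalization and -0.0545 after median centring. Leaving out any 1 array raised the count to between 360, without double knockout 1, and 590, without Terc knockout 2, since fewer arrays separate more easily. At the edge of the rule stood Ndufa2, whose highest ku86(ko) signal was 1235.1 and lowest ku86(wt) signal 1235.4. Sae1 lay just outside it, with a lowest ku86(ko) signal of 437.9 and a highest ku86(wt) signal of 438.

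Second probe sets seldom separated in the same way. Of the 204 genes, 64 had another tested probe set. The brightest such probe set differed in the same direction as the separated one in 41 of them (64.1%). Over the whole array, 872 genes had at least 2 tested probe sets. The 2 brightest shared a direction in 494 (56.7%), which is a different pairing. Of the 64, 1 separated the same way, against 1.68% higher and 1.46% lower over all tested probe sets. Gpank1 was the gene whose other probe set did not overlap in the same direction: it averaged 1440 ± 204 in ku86(ko) and 1830 ± 224 in ku86(wt) on one, and 613 ± 80.7 and 821 ± 110 on the other (SD, n = 4 each). Cx3cl1, the chemokine fractalkine, had probe sets that separated in opposite directions, with log2 differences of 1.02 and -0.44. Gpank1 and the opposed Cx3cl1 probe set were chosen after their values were seen.

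Kif11, the kinesin that pushes spindle poles apart, read 71.6 and 58 in the double knockout and 75.2 and 81.7 in the Ku86 knockout, against 15.9 and 11.7 in the Terc knockout and 32.1 and 39.2 in wild type. The Terc knockout was lower than wild type, and both ku86(ko) genotypes lay above both. The log2 difference was 1.69 ± 0.371 (SE, limma adjusted p = 0.421), and 1.57 within day 2. Raising the floor to the 40th percentile left a Kif11 difference of 0.89, smaller than that of Myh9, and an offset used instead of a floor gave 1.26. Myh9, the heavy chain of a non-muscle myosin, read 108.6 and 189.9 in the double knockout and 107.2 and 187.4 in the Ku86 knockout, against 99.5 and 81.3 in the Terc knockout and 36.9 and 48.1 in wild type. Its log2 difference was 1.21 ± 0.282 (SE, adjusted p = 0.524). The gap to the nearest ku86(wt) array was small, and a further Myh9 probe set, too dim to be tested, overlapped.

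Mylk, the kinase that phosphorylates smooth muscle myosin, read 415.5 and 490.6 in the double knockout and 383.5 and 529.1 in the Ku86 knockout, against 324.2 and 327 in the Terc knockout and 166.7 and 195.8 in wild type. The lowest ku86(ko) array still exceeded both Terc knockout arrays, which themselves lay above wild type. The log2 difference was 0.89 ± 0.172 (SE, adjusted p = 0.342), and it remained separated after quantile normalization and median centring. Dock9, an activator of the small GTPase Cdc42, averaged 88.4 ± 7.43 in ku86(ko) and 39.6 ± 16.2 in ku86(wt) (SD, n = 4 each), with a log2 difference of 1.26 overall and 0.82 within day 2. For Dock9, wild type 1 was the lowest array at 19.7 and wild type 2 the highest of its side at 58.7.

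Jak1, a tyrosine kinase of cytokine receptors, was also higher in ku86(ko). It read 118.5 and 96.6 in the double knockout and 65 and 92.3 in the Ku86 knockout, against 26.6 and 11.9 in the Terc knockout and 20.7 and 30.3 in wild type. The lowest ku86(ko) array was above all ku86(wt) arrays by a wide margin, and the log2 difference was 2.11 ± 0.395 (SE, adjusted p = 0.342). Within day 2 the difference of Jak1 was 2.02. A floor raised to the 40th percentile gave 1.26, and an offset gave 1.63. On its higher probe set Cx3cl1 averaged 96.8 ± 13.9 in ku86(ko) and 50.2 ± 19.8 in ku86(wt), and its nearest arrays were 76.7 and 75.6. Akap8, a nuclear anchor of protein kinase A, averaged 85.7 ± 17.1 in ku86(ko) and 45.1 ± 11.3 in ku86(wt) (SD, n = 4 each), a log2 difference of 0.94. Its 2 other tested probe sets differed by -0.01 and 0.03.

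Copz2, a coat protein of Golgi vesicles, averaged 91.5 ± 8.59 in ku86(ko) and 46.4 ± 16.9 in ku86(wt), a log2 difference of 1.05. Bbs9, a subunit of the BBSome that carries cargo in cilia, averaged 234 ± 29.5 and 147 ± 46.6 on the same sides, and its other probe set differed by 0.08. Srxn1, which repairs over-oxidised peroxiredoxins, averaged 133 ± 26.4 in ku86(ko) and 69.4 ± 20.9 in ku86(wt) (SD, n = 4 each throughout). The limma adjusted p of Copz2, Bbs9 and Srxn1 on these probe sets was 0.876 to 0.9. Another Srxn1 probe set, too dim to be tested, overlapped at 5.5 to 17.7 in ku86(ko) and 7 to 11 in ku86(wt). Gcdh, an enzyme of lysine breakdown in mitochondria, had a log2 difference of 0.69, and its other probe set differed by -0.10.

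Ankrd46, an ankyrin repeat protein, averaged 95.4 ± 22.8 in ku86(ko) and 51.1 ± 12.2 in ku86(wt) (SD, n = 4 each). Both of its other probe sets were too dim to be tested, and both separated the same way, at 34.7 to 52 in ku86(ko) and 18.3 to 34.6 in ku86(wt) on one, and at 45.9 to 74.4 and 16.8 to 33.3 on the other. D1Pas1, a testis DEAD-box RNA helicase closely related to Ddx3x and Ddx3y, read 1013.5 to 1150.3 in ku86(ko) and 481.6 to 990.4 in ku86(wt). Its 4 ku86(ko) arrays lay close together, the other 4 did not, and its other probe set overlapped at 203.6 to 447.5 and 192.7 to 380. Brox had a log2 difference of 0.89.

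The lower members with the smallest p included Agt, angiotensinogen, the precursor of the angiotensin hormones. Agt read 394 and 371.3 in the double knockout and 170 and 260.5 in the Ku86 knockout, against 569.7 and 700.9 in the Terc knockout and 417.5 and 497.2 in wild type. The Ku86 knockout arrays were the lowest and the Terc knockout arrays the highest. The log2 difference was -0.92 ± 0.181 (SE, adjusted p = 0.347), and -0.85 within day 2. Agt was the largest of the lower differences, and it remained separated under both other scalings.

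Atp5md, a small membrane subunit of ATP synthase, read 848.5 and 810.2 in the double knockout and 709.7 and 725.7 in the Ku86 knockout, against 1092.7 and 1235.3 in the Terc knockout and 1297 and 1181.3 in wild type. Each side was tight, and the log2 difference was -0.64 ± 0.129 (SE, adjusted p = 0.353). Gpx4, which reduces lipid hydroperoxides and also builds the sperm midpiece capsule, read 2770.1, 2997.5, 2585.9 and 3403 in the same order in ku86(ko), against 5460, 3964, 4679.8 and 3709.8 in ku86(wt). Its log2 difference was -0.59 ± 0.146 (SE, adjusted p = 0.672), and -0.38 within day 2. The sides of Gpx4 overlapped after quantile normalization.

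Higd1a, a mitochondrial protein induced by low oxygen, averaged 233 ± 23.6 in ku86(ko) and 359 ± 80.8 in ku86(wt), and Timm10b, a chaperone of mitochondrial import, averaged 227 ± 24.6 and 339 ± 47.5. Their log2 differences were -0.60 and -0.57. Another Timm10b probe set differed by 0.21.

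Tubb6, a beta tubulin, averaged 957 ± 62.6 in ku86(ko) and 1340 ± 72.9 in ku86(wt). Its probe set carries the suffix for a gene family, as do the named ones of Atp5md, Ipo4 and Psmb4. That of Timm10b carries the suffix for shared probes. Related transcripts may add to such signals. Ipo4, a nuclear import receptor, averaged 481 ± 59 in ku86(ko) and 708 ± 62.9 in ku86(wt), and its 2 other probe sets differed by -0.27 and -0.18. Lypla1, which removes palmitate from proteins, averaged 600 ± 24.8 and 887 ± 114 on the same sides (SD, n = 4 each), while its 4 other tested probe sets overlapped, with log2 differences from -0.36 to 0.67. Ipo4 and Lypla1 thus separated on 1 probe set each. Psmb4, a subunit of the proteasome core, differed by -0.43 on the named probe set and by 1.11 on another. That other probe set passed the filter on dim probe sets only through ku86(ko), so its direction was fixed. Within day 2 these Psmb4 differences were -0.23 and 0.86. Agpat1, an enzyme of phosphatidic acid synthesis, differed by -0.42. Lmbr1l differed by -0.57 overall but by -0.26 within day 2, where wild type 1, its highest array at 2219.6, is absent.

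**Figure D3:**
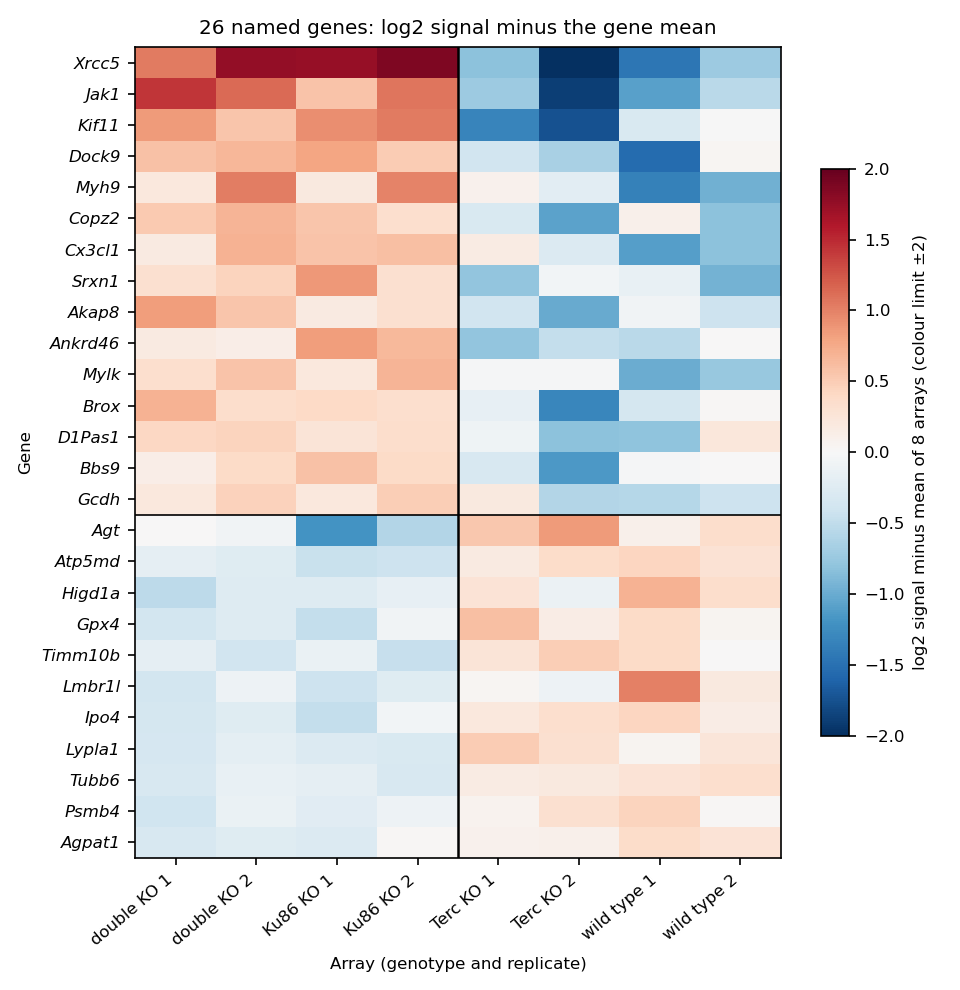
Log2 signal of the 26 named genes (rows) on each array (columns, ku86(ko) genotypes left of the black line), with the floor of 11.8 applied, minus the gene's mean over 8 arrays. Red is above that mean and blue below it, and the colour scale ends at ±2. The 15 upper genes are redder on the left and the 11 lower genes bluer on the left, as the rule requires, and Terc knockout 2 holds the darkest blue cells of Xrcc5, Jak1 and Kif11.

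Of the 26 named genes, 17 separated on all 3 scales, 23 after quantile normalization and 18 after median centring. Copz2 and Ankrd46 overlapped under both other scalings, Gpx4 after quantile normalization, and Akap8, D1Pas1, Bbs9, Higd1a, Lmbr1l and Agpat1 after median centring. The direction of these 26 stayed the same under every alternative run, which the choice of separated members largely fixes.

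The Ku86 difference was then taken within each Terc background. The contrast with Terc absent set the double knockout against the Terc knockout, and the contrast with Terc present set the Ku86 knockout against wild type. The signs of separated members are fixed by the rule, so only sizes are described. Limma called 0 of 7282 (0%) with Terc absent, with 310 at an unadjusted p under 0.05, and 3 (0.0412%) with Terc present, with 430 at an unadjusted p under 0.05. The called probe sets were those of Klk1b8, Tmem129 and Ift46, and none of these was a separated member of the 4 against 4 comparison. Over all 7282 probe sets the 2 contrasts, which share no array, had a Pearson correlation of -0.014 across genes, and 48.5% had the same sign. Genes are not independent replicates, and these values are a description.

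For Xrcc5 the log2 difference was 3.51 with Terc absent and 2.89 with Terc present (interaction adjusted p = 0.924 in limma). Jak1 differed by 2.59 with Terc absent and 1.63 with Terc present, and Kif11 by 2.23 and 1.14 in the same order. Mylk went the other way in size, at 0.47 with Terc absent and 1.32 with Terc present. Its interaction had an unadjusted limma p of 0.0303, the lowest among the 26 named genes. Myh9 and Cx3cl1 were also larger with Terc present, at 1.75 and 1.54, than with Terc absent, at 0.68 and 0.49. Agt differed by -0.72 with Terc absent and -1.11 with Terc present, and Gpx4 by -0.69 and -0.49.

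Limma called 0 of 7282 (0%) for the interaction, the difference with Terc absent minus that with Terc present. Unadjusted, 367 had a p under 0.05, and the lowest adjusted p was 0.124. The 4 probe sets with the smallest interaction p were those of Tmem129 (-4.94), Ift46 (-2.96), Scx (4.73) and Hus1 (-3.67). Hus1, a subunit of the checkpoint clamp that loads at damaged DNA, read 73.6 and 27.9 in the double knockout and 27.7 and 37.9 in the Ku86 knockout, against 214.4 and 291.5 in the Terc knockout and 14.3 and 13.7 in wild type. It was thus lower in ku86(ko) with Terc absent and higher with Terc present, and its sides overlapped.

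**Figure D4:**
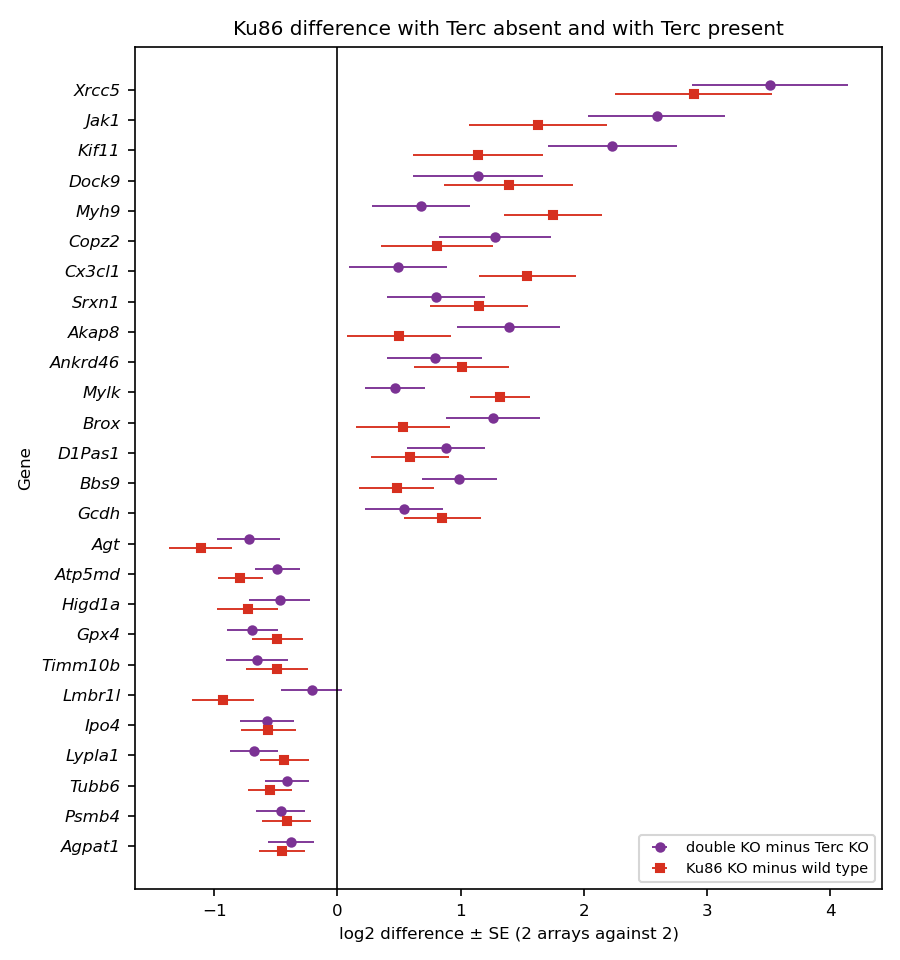
Log2 difference ± SE of the 26 named genes (rows) for double knockout minus Terc knockout (circles) and Ku86 knockout minus wild type (squares), 2 arrays against 2 each. All symbols of a gene lie on 1 side of 0, which the rule fixes, and Xrcc5, Jak1 and Kif11 lie farther from 0 with Terc absent while Mylk and Myh9 do so with Terc present.

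Gene lists were described by the brightest tested probe set of each gene, against 5530 genes in all. Of these 5530, 3063 lay above 0, 1.72% separated higher and 1.54% lower, with a median log2 difference of 0.031. The filter on dim probe sets also fixed the direction of list members that passed it through 1 side only. These included Cd9, Dmrt1, Kitl, Mcm4 and Myh11 through ku86(ko), and Atp5j2 and Amh through ku86(wt). In DNA repair, 5 of 15 end joining genes were tested, with a median of -0.22, and Xrcc5 was the tested member that separated. That median was -0.376 within day 2, -0.091 without wild type 2 and -0.128 without Ku86 knockout 2. Of 16 homologous recombination and break signalling genes tested, 12 lay above 0, with a median of 0.146, which was 0.062 after median centring, 0.07 without Terc knockout 2 and 0.079 without wild type 1. Brca1, which guides strand exchange at breaks, separated. It read 76.8 and 57.4 in the double knockout and 66.3 and 40 in the Ku86 knockout, against 35.2 and 16.7 in the Terc knockout and 38.3 and 34.9 in wild type, a log2 difference of 0.97 ± 0.401 (SE, adjusted p = 0.91). The nearest arrays were 40 and 38.3, and the sides overlapped under both other scalings.

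Of 12 p53 targets and damage response genes tested, 8 lay above 0, with a median of 0.172, but -0.01 within day 2, 0.071 without Ku86 knockout 1, 0.09 without Terc knockout 2 and 0.088 after median centring. Plk2, a polo-like kinase induced by p53, separated at 166.8 to 221.1 in ku86(ko) and 121.7 to 144.8 in ku86(wt). Cdkn1a, the p53-induced inhibitor p21, averaged 144 ± 11.5 in ku86(ko) and 177 ± 22.9 in ku86(wt) and overlapped. Of 26 proliferation genes, 15 lay above 0 with a median of 0.119, and Kif11 and Cdk4, a G1 kinase, separated. Cdk4 read 458.2 to 530.2 in ku86(ko) and 353.4 to 432.4 in ku86(wt). After median centring Plk2 and Cdk4 overlapped. The median of the proliferation list was 0.041 without wild type 1, 0.064 after quantile normalization and 0.036 after median centring. Of 15 apoptosis genes, Birc2, a caspase inhibitor family member, separated at 536.6 to 595.9 in ku86(ko) and 357.6 to 526.4 in ku86(wt), with a list median of -0.001 (0.161 within day 2), and it too overlapped after median centring. The 8 telomere maintenance genes had a median of 0.061 with 0 separated, and it was -0.022 after median centring, -0.026 without double knockout 2, -0.044 without Ku86 knockout 2 and -0.001 without Terc knockout 1.

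Of 20 heat shock and unfolded protein genes, 13 lay above 0, with a median of 0.09, and 3 (15%) separated higher. The list's median was -0.028 without wild type 1, 0.229 without wild type 2, 0.17 without double knockout 1 and 0.007 after median centring. Hspa5, the main chaperone of the endoplasmic reticulum, read 1990.7 and 1528.8 in the double knockout and 1604.8 and 1674.5 in the Ku86 knockout, against 1396.8 and 1051.3 in the Terc knockout and 1156.7 and 1354.2 in wild type. Hsp90b1, an Hsp90 of the same compartment, read 1792.4 and 1724.4 in the double knockout and 1719.3 and 1740.6 in the Ku86 knockout, against 1515.7 and 1213 in the Terc knockout and 885.6 and 1483.3 in wild type. The ku86(ko) arrays of Hsp90b1 lay within a narrow band, and the spread of its ku86(wt) arrays was set mostly by wild type 1. The log2 differences were 0.46 ± 0.147 for Hspa5 and 0.48 ± 0.167 for Hsp90b1 (SE, adjusted p = 0.9 for both), and 0.32 and 0.29 within day 2. Hsph1, a co-chaperone of Hsp70, differed by 0.29. After median centring the sides of all 3 overlapped, and those of Hsph1 also after quantile normalization.

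The promoters of Hspa5 and Hsp90b1 hold matches to the endoplasmic reticulum stress element, the motif through which Atf6 and NF-Y act in the unfolded protein response. The 250 bases before each RefSeq start are shown because both genes separated and share this motif, searched on both strands as CCAAT, 9 bases of any kind, and CCACG. Capitals mark each match, which on the reverse strand reads CGTGG, 9 bases, and ATTGG. Hspa5 lies at chr2:34771840-34772089 on the plus strand, and Hsp90b1 at chr10:86705445-86705694 on the minus strand, in GRCm38.p6, the build of the RefSeq table.
Hspa5: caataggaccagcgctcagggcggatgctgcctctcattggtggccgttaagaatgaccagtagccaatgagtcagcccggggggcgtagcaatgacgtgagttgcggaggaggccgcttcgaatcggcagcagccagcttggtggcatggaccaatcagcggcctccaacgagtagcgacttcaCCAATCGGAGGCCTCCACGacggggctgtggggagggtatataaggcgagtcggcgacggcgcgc
Hsp90b1: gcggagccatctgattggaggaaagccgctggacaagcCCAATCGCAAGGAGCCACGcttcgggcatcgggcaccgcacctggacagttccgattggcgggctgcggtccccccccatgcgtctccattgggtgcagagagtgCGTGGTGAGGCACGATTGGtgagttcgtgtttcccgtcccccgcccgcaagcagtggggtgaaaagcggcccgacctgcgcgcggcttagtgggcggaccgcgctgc
The motif begins 65 bases before the start in Hspa5, and 212 and 107 bases before it in Hsp90b1. It was found in 37 of 32851 RefSeq promoters (0.113%) and in 10 of the 4456 tested genes that had a promoter in the table (0.224%). Of these 10 genes, Hspa5, Hsp90b1 and Pan2, a subunit of a deadenylase, separated higher, against 1.72% of all genes, and 0 separated lower, and the median log2 difference over all 10 was 0.065. The values of Hspa5 and Hsp90b1 prompted the search, so these 2 support nothing about the motif. Pan2 read 193.8 to 210.1 in ku86(ko) and 140.4 to 181.1 in ku86(wt). The other 7 overlapped, among them the chaperone Canx at 313.1 to 337 in ku86(ko) and 221.8 to 446.7 in ku86(wt). Dnajc3 and Pdia6, which also serve protein folding in the endoplasmic reticulum, differed by -0.31 and -0.22. A match is a description of the sequence, and binding was not measured.

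Of 48 oxidative phosphorylation genes tested, 19 lay above 0 and the median was -0.103, against 0.031 for all genes. Of these, 4 (8.33%) separated lower, namely Ndufa2 and Ndufb2 of complex I, Sdhb of complex II and Uqcrq of complex III, and 0 separated higher. Sdhb was tight on each side, at 1053.9 to 1095.9 in ku86(ko) and 1165.9 to 1220.3 in ku86(wt). Its log2 difference was small, at -0.15 ± 0.122 (SE, limma adjusted p = 0.937). Uqcrq read 4552.1 to 5116.3 in ku86(ko) and 5168.7 to 5761.7 in ku86(wt), a difference of -0.19. Ndufb2 read 1468 to 1930.9 in ku86(ko) and 2041.3 to 2290.3 in ku86(wt). The log2 differences of Ndufa2 and Ndufb2 were -0.48 and -0.36, but -0.14 and -0.15 within day 2. After quantile normalization all 4 overlapped, and after median centring Ndufb2 alone of them stayed separated. Within day 2 the list's median was -0.091, and after median centring it was -0.186. The summed signal of the list was 83474 to 85581 in ku86(ko) and 84206 to 93688 in ku86(wt), so the sides overlapped. Of 32 proteasome genes 13 lay above 0 (median -0.086, or -0.009 within day 2 and -0.022 without Ku86 knockout 2) and Psmb4 separated, and of 25 ribosomal protein genes 10 lay above 0 (median -0.099) and 0 separated. The ribosomal median was -0.014 within day 2, -0.018 after quantile normalization, -0.017 without Ku86 knockout 1 and -0.182 after median centring. Of 18 antioxidant genes, Gpx4 was the tested member that separated, and the median was -0.005.

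Of 20 peritubular, vascular and matrix genes 19 lay above 0, with a median of 0.331 and 0.501 within day 2, and the scalings gave 0.284 and 0.247. Their summed signal was 3589 to 5208 in ku86(ko) and 2727 to 4377 in ku86(wt). Mylk was the tested member that separated, and Myh11, smooth muscle myosin, read 49.5 to 120.7 in ku86(ko) and 4.6 to 65.4 in ku86(wt), with both wild type arrays under the floor. Acta2, smooth muscle actin, read 296 and 500.2 in the double knockout and 178.4 and 293.2 in the Ku86 knockout, against 297.2 and 121.9 in the Terc knockout and 81.1 and 91.1 in wild type. Terc knockout 1 thus reached the ku86(ko) range. The defining endothelial receptors Kdr and Tek read at most 72.2 and 25.7 on any array and were not tested. Tek nonetheless separated, at 14.3 to 25.7 in ku86(ko) and 2.2 to 7.2 in ku86(wt), where all 4 arrays were under the floor of 11.8.

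Of 19 Sertoli cell genes 14 lay above 0, with a median of 0.268, or 0.176 without Ku86 knockout 2, and a summed signal of 3408 to 6436 in ku86(ko) and 3088 to 4596 in ku86(wt). Of these, 0 separated. Cldn11, a tight junction protein, read 191.3 and 147.8 in the double knockout and 63.9 and 100.6 in the Ku86 knockout, against 70.8 and 53.2 in the Terc knockout and 42.9 and 54.6 in wild type. Ctsl, cathepsin L, read 778.6, 602.1, 194.5 and 484.8 in the same order in ku86(ko), against 411.7, 191.3, 183.7 and 199.6 in ku86(wt). In both genes the double knockout was highest and Ku86 knockout 1 lay inside the ku86(wt) range. The markers Fshr and Amh had log2 differences of -0.14 and -0.21. Amh was dim, at 29.6 to 49.4 over all arrays, and passed the filter only through ku86(wt), so its direction was fixed. Other Sertoli regulators of the list went both ways, with Wt1 at 0.49, Gata4 at 0.27, Dhh at 0.29 and Gata1 at -0.14. The Sertoli list median was 0.086 with Terc absent and 0.436 with Terc present, whereas Cldn11 and Ctsl differed by 1.45 and 1.29 with Terc absent and 0.73 and 0.68 with Terc present.

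The medians of germ cell lists were 0.241 over 6 spermatogonial genes and -0.054 over 9 spermatocyte genes. They were -0.027 over 14 round spermatid genes and -0.046 over 14 elongating spermatid genes, and 0 members separated in any of them. Cd9 and Dmrt1, of the spermatogonial list, passed the filter on dim probe sets only through ku86(ko) and so had to lie above 0. After quantile normalization the spermatid medians were 0.038 and 0.05. The spermatogonial median ran from 0.139 without Ku86 knockout 2 to 0.37 without double knockout 2, and the spermatocyte median was 0.132 without wild type 2. Leaving out 1 array put the spermatid medians between -0.099 and 0.066 for round and between -0.098 and 0.028 for elongating spermatids. Leydig cell genes had a median of 0.083, or -0.001 after either other scaling and -0.094 without Ku86 knockout 2, and Fdx1, the electron donor of steroid synthesis, separated lower at 1135.5 to 1423.6 in ku86(ko) and 1489.7 to 1603.8 in ku86(wt) on the deposited scale but overlapped under both others. Of 8 macrophage and immune genes tested, 4 lay above 0, and Adgre1 and Ptprc read at most 23.8 and 14.4 on any array. In RNA of mixed cells, whether of testis as labelled or of germ cells as recorded, fewer cells of a type and less RNA per cell cannot be told apart. The part that cell makeup, scan day or single arrays had in the member values was not tested.

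**Figure D5:**
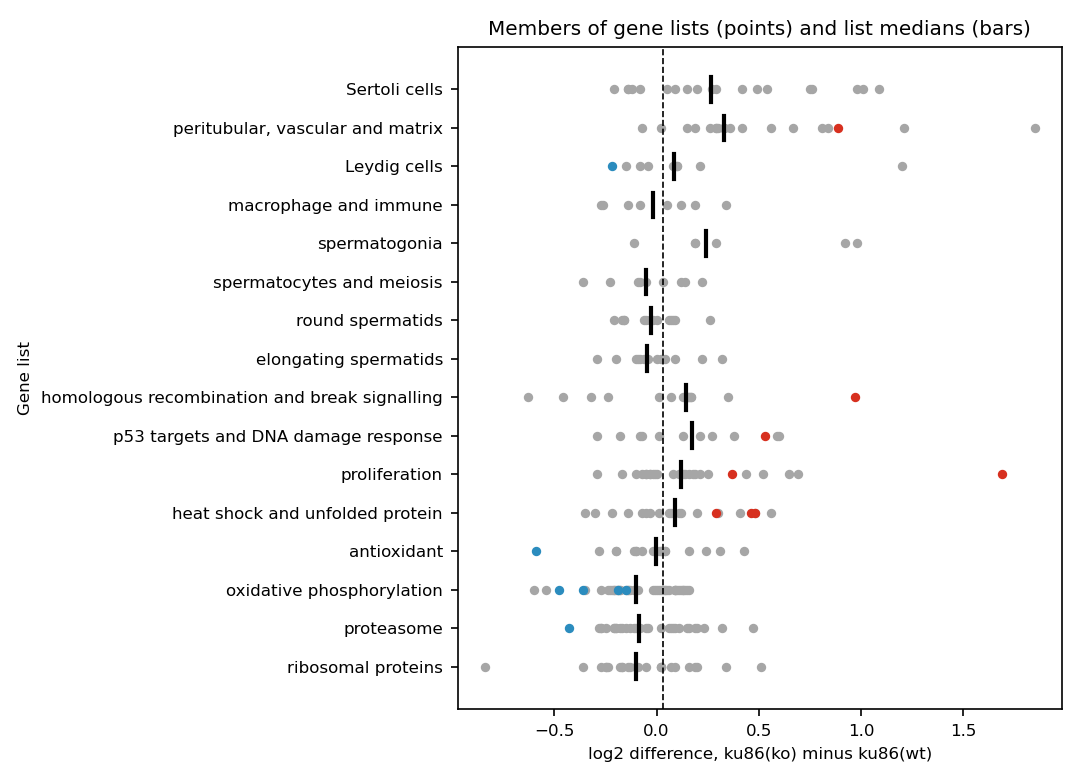
Log2 difference, ku86(ko) minus ku86(wt), of each tested member (points) of 16 gene lists, with the list median as a black bar and the median of all genes, 0.031, as a dashed line. Red points separated higher and blue points separated lower. The end joining list, which holds Xrcc5, is left out. Also left out are telomere maintenance, apoptosis, cyclin-dependent kinase inhibitors and senescence, erythroid, epididymis, immediate early, insulin-like growth factor and interferon genes. The medians of these other lists ran from -0.187 to 0.062.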

How the data were processed

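Testis RNA of 8 samples was measured on 1-colour arrays. Per the labels, 2 samples belonged to each of 4 genotypes, and groups were taken from the titles. The deposited values were intensities, scaled by the authors array by array (means without the extreme 2% of probe sets of 200.13 to 200.16), and the scanner's text records, read for scan day, lot and pooling, were also deposited. No label or header names the software used. Values under the pooled 20th percentile (11.8) were raised to it before taking log2. Of 12488 probe sets, 66 controls and 5140 with a mean log2 under that of the pooled 40th percentile (38.1) were left out, so 7282 were tested. Exactly 1 symbol was listed for 10855 probe sets, several for 396 and none for 1237.

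Limma 3.58.1 in R 4.3.3 (lmFit, eBayes with a trend) was fitted to all 8 arrays with 1 mean per genotype. Tests were two-sided, and calls were made at a Benjamini-Hochberg adjusted p under 0.05. The fit was tested on simulated data. Named genes were Xrcc5, then separated probe sets with 1 symbol, by size of difference at an unadjusted p under 0.01 and up to 15 in each direction, up to 4 separated members of each list, cell markers as levels, and 4 interaction probe sets. The members and lists were chosen with earlier results of these data known. A list used the brightest tested probe set of each gene. The RefSeq table of GRCm38.p6 gave gene order and promoters. Alternatives covered scaling, floor, filter, variance trend, design, blocks for replicate number and scan day, threshold and each array left out. The number of arrays, 4 a side, limits the precision.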

Additional observations from a re-analysis of the deposited data

Results flagged for a closer look

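Among 84 sides of 4 arrays over 42 named genes, 3 had 1 array far from the other 3 by Dixon's ratio of gap to range, and chance alone marks about 1 in 20 such sides. The ratio was 0.845 for Xrcc5, where double knockout 1, the pool of 3 mice, was the lowest ku86(ko) array at 259. It was 0.831 for Brox, where double knockout 1 was the highest ku86(ko) array at 186.4. It was 0.888 for Brca1, where Terc knockout 2 was the lowest ku86(wt) array at 16.7.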

How the results depend on the processing

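Counts called by limma moved as follows. The Ku86 main effect, with 0 calls, had 1 (Xrcc5) after raising the floor to the 40th percentile, with an offset in place of the floor, with the filter at the 60th percentile and at a threshold of 0.10. It had 2 (Matn3, -0.46, and Rell1, 0.54) with no filter, where arrays of dim probe sets sit together at the floor, and 0 to 1 with each array left out. With Terc present the 3 calls became 0 after quantile normalization, with an offset, with no variance trend, with the replicate block and with scan day as a block, 1 after median centring and 0 to 3 with each array left out. With Terc absent the count was 10 with no filter and 0 to 2 with each array left out, and for the interaction it was 8 and 0 to 1. Xrcc5 passed at 2.78 with the floor at the 40th percentile, at 2.82 with an offset, at 3.20 with the filter at the 60th percentile or the threshold of 0.10, and at 2.55 to 3.85 without a Terc knockout array. Separated probe sets numbered 360 to 590 with each array left out. The median of the neighbours of Xrcc5 was -0.057 after median centring. The cause of these moves was not tested. Xrcc5 and the 25 other genes named by size of difference reversed under 0 alternatives, and the alternatives were not run in full for other named genes. Samples that share a replicate number correlated in their deviations at 0.0126 to 0.254. The highest value joined the double knockout and the Ku86 knockout, whose first arrays shared scan day 1. Every array numbered 2 was scanned on day 2, so replicate number and scan day cannot be fully told apart. The labels do not say that the numbers pair samples, and the main fit did not pair them. With the replicate block the main effect had 0 calls and Xrcc5 an adjusted p of 0.261. Scan day 2 alone is given as values, and with scan day as a block Xrcc5 had the same difference, 3.23, with an adjusted p of 0.745.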
